A study of Homo sapiens with 4 samples.

Results

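The BCL2 family of apoptosis regulators was examined in parental and cisplatin-resistant head and neck squamous cell carcinoma (HNSCC) cells. The members were 10 genes, taken by name from the array: the guardians BCL2, BCL2L1 (encoding BCL-XL), BCL2L2 (BCL-W), MCL1 and BCL2A1 (BFL-1), the effectors BAX and BAK1, and the BH3-only genes BBC3 (PUMA), PMAIP1 (NOXA) and BCL2L11 (BIM). They carried 15 of the 58201 probes and were 10 of the 43305 genes on the arrays. Expression had been measured in 4 samples, 1 each of HN4, HN4_CR, HN30 and HN30_CR, with 1 one-colour Agilent array (Cy3 dye) per sample. Both HN4 and HN30 are established human lines of this carcinoma. HN4_CR and HN30_CR are their descendants after stepwise selection in cisplatin. They were grown with 20 μM of the drug. By the sample labels this lasted 48 h, while the methods give it as their standing medium, and which applied to the RNA is not settled. No cisplatin is given for the parental cells. Cisplatin is a platinum drug that damages DNA. Acquired resistance and exposure to the drug therefore cannot be told apart in these arrays, and each resistant line is 1 derivative of its parent.

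Proteins of this family decide at the outer mitochondrial membrane whether a stressed cell dies. When set free, BAX and BAK1 form pores there, which release cytochrome c and start the caspases. The guardians bind the effectors and hold them inactive, while BH3-only proteins occupy the groove of the guardians or act on the effectors directly. In squamous carcinoma cells BBC3 and PMAIP1 are known as targets of stress transcription factors, and MCL1 as a short-lived protein that PMAIP1 binds selectively.

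The values below are levels on a log2 scale: the spot brightness after background subtraction, minus the 75th percentile of the same array. A level of 0 is thus the brightness at that percentile, and only levels of the same probe were compared between arrays. A difference is the resistant minus the parental level. The scanner software gives an error for each spot, and its median SD for a member's difference was 0.204, which covers the reading of the spots and no variation between cultures. Each condition has 1 array, so a resistant line cannot be tested against its parent. Below, higher means a difference above 1 (2-fold) with the resistant signal well above background, and lower means a difference below -1 with the parental signal well above background. In bulk RNA, fewer cells of a kind and less RNA per cell cannot be told apart.

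The probes decide which transcripts of a member were read. Their first 30 of 60 bases are shown for BCL2A1 and BCL2L11, whose probes gave unlike values, and for BBC3 and PMAIP1, the BH3-only genes with the same sign in both lines. Coordinates are those of the array design on hg19, and no part is in capitals because no motif was marked.
BBC3, chr19:47724174-47724233, minus strand: agtctgggagtggggagggatggcccagcc
PMAIP1, chr18:57570691-57570750, plus strand: ggggccagtaaatcagtagactgaacattc
BCL2A1 probe 1, chr15:80253220-80253252, minus strand: aggaaagatctgtgaaatgctcttctgtcc
BCL2A1 probe 2, chr15:80263136-80263195, minus strand: tgtaaccatatttgcatttgaaggtattct
BCL2L11 probe 1, chr2:111925892-111925951, plus strand: acttgtgttttgcactgatgaattttgaca
BCL2L11 probe 2, chr2:111886352-111886411, plus strand: ctctctccctcttccttgagcattttgtca
BCL2L11 probe 3, chr2:111878705-111878764, plus strand: cctttcttggcccttgttcccccaaatgtc
Probe 1 is the brightest of each gene on average and stood for the gene. The array lists the BCL2 probes under different RefSeq transcripts of the gene, and whether either reads an exon shared by both was not examined. BCL2A1 probe 1 was placed on only 33 of its 60 bases, and 3 of the 4 RefSeq transcripts that the array lists for it are not in the current RefSeq table, so what it reads is uncertain.

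All 10 members were well above background on all 4 arrays through their brightest probe. In HN4_CR, 4 members were higher than in HN4, the guardians BCL2 and BCL2L1, the effector BAK1 and the BH3-only gene BBC3, beside 9.39% of the 26853 genes tested, and 1 member, PMAIP1, was lower, beside 8.57%. In HN30_CR, 3 members were higher than in HN30, BCL2L1, BBC3 and BCL2L11, beside 19.7% of the 28330 genes tested, and 0 were lower, beside 13.3%. BBC3 and BCL2L1 were thus higher in both lines, BCL2L1 in HN30 only just, at 1.004. The share of all genes higher in both lines was not counted. No member passed a difference of 2 in either direction, beside 5.81% of genes in HN4 and 11.1% in HN30.

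The HN30 directions depend on the scaling. Scaling to the median of each array in place of its 75th percentile lowered the median difference of all genes in HN30 from 0.05 to -0.36. Under it 1 member was higher in HN30_CR, beside 3870 of 28330 tested genes, and 3 were lower (BCL2, MCL1 and PMAIP1), beside 6726 (23.7%). Of all genes past the limit 36.5% were higher in place of 59.7%. In HN30 the difference also depended on brightness: genes of like level, within 0.5 of a member's mean over the pair of arrays, had for BAX a median difference of -0.54 and for BCL2 one of 0.23, whereas in HN4 these medians were -0.11 and -0.07. The median of genes of like level is therefore given beside the members' HN30 values.

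**Figure D1:**
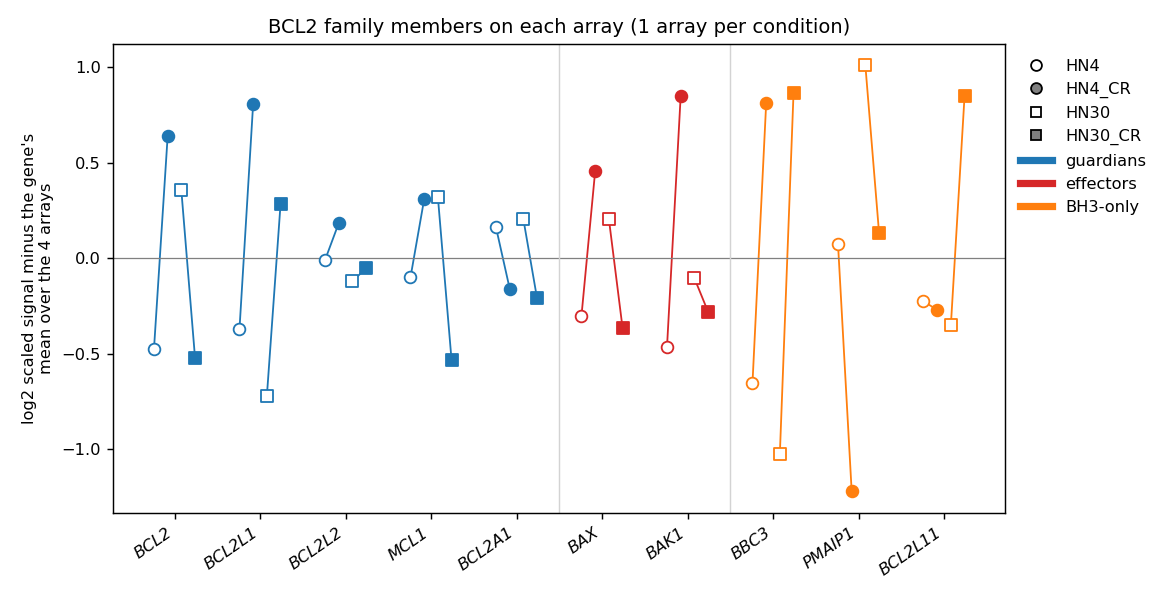
Level of each member on the 4 arrays, on the vertical axis as log2 scaled signal minus the gene's own mean over the arrays, with circles for HN4, squares for HN30, open symbols for parental and filled symbols for resistant cells (1 array each, with no error bar). BBC3 and BCL2L1 go up and PMAIP1 goes down from the open to the filled symbol in both lines, while BCL2, MCL1 and BAX go up in HN4 and down in HN30.

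Among the guardians, BCL2L1 was higher in both resistant lines. BCL2L1 encodes BCL-XL, which holds BAX and BAK1 inactive. Its level was 0.96 in HN4, 2.14 in HN4_CR, 0.60 in HN30 and 1.61 in HN30_CR. Both resistant arrays lay above both parental arrays, and the differences were 1.18 ± 0.20 (scanner SD, 1 array each), or 2.27-fold, in HN4 and 1.00 ± 0.20, or 2.01-fold, in HN30. In HN4 7.62% of the tested genes had a larger difference, and in HN30 19.6%. The HN30 value lies at the limit and was above 1 under 9 of 13 alternative settings, with a range from 0.59 to 1.18, whereas the HN4 value passed under all 13. In HN30 it was 0.97 with the normexp background correction, 0.59 with median scaling, 0.99 with a pseudocount of 16 and 0.87 with the percentile over probes. Some of the 13 settings cannot alter a gene with 1 probe that is bright on all arrays, such as BCL2L1, BBC3, BAK1 and PMAIP1. Genes of like level had a median difference of -0.17 in HN30.

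BCL2, the founding guardian, differed in opposite directions. Through probe 1 its level was -3.04 in HN4, -1.93 in HN4_CR, -2.21 in HN30 and -3.09 in HN30_CR. HN4_CR and HN30 were the high arrays, so the resistant and parental levels overlapped. The difference was 1.11 ± 0.23, or 2.16-fold, in HN4 and -0.88 ± 0.23 in HN30, where parental cells had 1.84-fold the signal of resistant cells and genes of like level had a median difference of 0.23. Probe 2 gave 0.93 ± 0.23 in HN4 and -0.67 ± 0.24 in HN30, with the same signs. Parental HN30 had 0.83 more BCL2 than parental HN4, and resistant HN30_CR had 1.16 less than HN4_CR, written as a difference of -1.16. The HN4 value stayed above 1 under 11 of 13 alternatives, falling to 0.64 with the normexp background correction and 0.94 with a pseudocount of 16, and the HN30 value passed -1 under 5 of 13.

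MCL1, the short-lived guardian, had a level of 2.50 in HN4, 2.91 in HN4_CR, 2.92 in HN30 and 2.07 in HN30_CR. The lowest array was HN30_CR. The differences, 0.41 ± 0.20 in HN4 and -0.85 ± 0.20 in HN30, did not reach the limit. Genes of like level had a median difference of -0.35 in HN30. BCL2L2, encoding BCL-W, varied least, with levels of 2.96 in HN4, 3.15 in HN4_CR, 2.85 in HN30 and 2.92 in HN30_CR. Its differences were 0.19 ± 0.20 and 0.07 ± 0.20, both within the scanner error, and that in HN30 was below 0 under 2 alternatives. Genes of like level had a median difference of -0.40 in HN30.

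BCL2A1, a guardian that NF-kappaB is known to induce, gave a result that depended on the probe. Probe 1 read 4.02 in HN4, 3.70 in HN4_CR, 4.06 in HN30 and 3.65 in HN30_CR, a difference of -0.32 ± 0.20 in HN4 and -0.41 ± 0.20 in HN30. Both resistant arrays lay below both parental arrays, but genes of like level had a median difference of -0.52 in HN30, lower than that of BCL2A1, and there the sign turned with quantile normalization (0.04), in the deposited values (0.05) and after removal of the brightness trend (0.12). Probe 2, which matches BCL2A1 over all its 60 bases, was well above background only on HN4_CR, with a level of -3.89. It was at least 1.78-fold higher there than in HN4, set against the dimmest HN4 signal that was well above background. This bound leaves out the scanner SD of the difference, which was 1.46 on the log2 scale. In HN30 it was not well above background on either array and no fold is given. The deposited arrays do not settle which probe stands for the gene.

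Of the effectors, BAK1 passed the limit in HN4, and neither passed it in HN30. BAX, which moves from the cytosol to mitochondria to form pores, had a level of 4.56 in HN4, 5.32 in HN4_CR, 5.07 in HN30 and 4.50 in HN30_CR through probe 1, so that the resistant arrays were both the highest and the lowest. This probe was printed on 10 spots of each array, of which 8 were used on HN4 and 9 on each of the others. Its spots spread by 0.022 in HN4, 0.016 in HN4_CR, 0.017 in HN30 and 0.027 in HN30_CR (SD between spots), and the spots of any pair of these arrays except HN4 and HN30_CR were further apart than that. The highest spot of HN30_CR, at 4.53, lay just below the lowest of HN4, at 4.54. The difference was 0.76 ± 0.20 in HN4 and -0.57 ± 0.20 in HN30. Probe 2 read 0.60 ± 0.20 and -0.995 ± 0.205, again with opposite signs. In HN30 genes of a level like that of probe 1 had a median difference of -0.54, close to the value of BAX itself, and with the brightness trend removed BAX differed by -0.03.

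BAK1, the effector that sits in the mitochondrial membrane, had a level of 2.44 in HN4, 3.76 in HN4_CR, 2.81 in HN30 and 2.63 in HN30_CR. HN4_CR alone was high. The difference was 1.31 ± 0.20, or 2.49-fold, in HN4, with 6.53% of genes above it, and it passed 1 under all 13 alternatives. In HN30 the difference was -0.18 ± 0.20, within the scanner error, and it was above 0 under 3 alternatives, up to 0.19. Genes of like level had a lower median difference, -0.38.

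**Figure D2:**
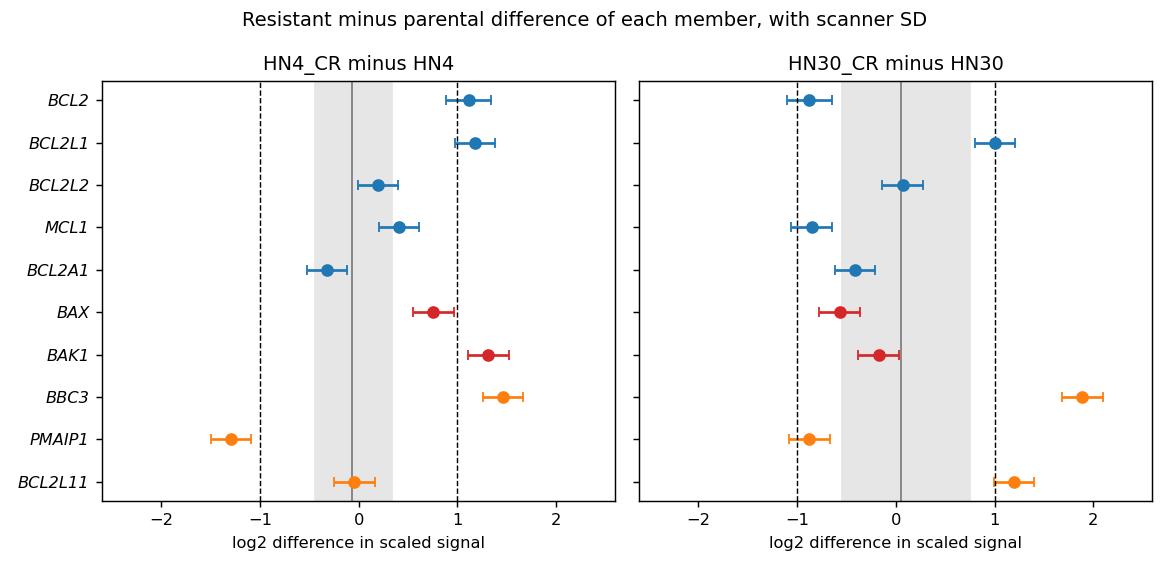
Resistant minus parental difference of each member (log2, horizontal axis) in HN4 and HN30, with bars for 1 scanner SD, blue for guardians, red for effectors and orange for BH3-only genes. The grey band is the middle 50% of all tested genes with a line at their median and dashed lines mark a difference of 1 and -1; BBC3 lies furthest right in both lines, at 1.46 and 1.89.

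Among the 10 members read by probe 1, the BH3-only genes included the largest differences, and they went both ways. BBC3 encodes PUMA, which binds every guardian. Its level was 2.49 in HN4, 3.95 in HN4_CR, 2.12 in HN30 and 4.01 in HN30_CR. The resistant arrays nearly coincided, 0.05 apart, and lay above both parental arrays. The difference was 1.46 ± 0.20, or 2.76-fold, in HN4 and 1.89 ± 0.20, or 3.71-fold, in HN30, where genes of like level had a median difference of -0.41. It was above 1 in both lines under all 13 alternatives, from 1.44 to 1.53 in HN4 and from 1.48 to 2.35 in HN30. Of the tested genes, 5.63% had a larger difference in HN4 and 9.19% in HN30.

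PMAIP1 encodes NOXA, the BH3-only partner of MCL1. It read 3.45 in HN4, 2.16 in HN4_CR, 4.39 in HN30 and 3.51 in HN30_CR. Each resistant array was below its parent, but HN30_CR was slightly above HN4, so the groups overlapped. The difference was -1.30 ± 0.20 in HN4, where parental cells had 2.46-fold the signal, and -0.88 ± 0.20 in HN30, where they had 1.84-fold. In HN4 it passed -1 under all 13 alternatives. In HN30 it did so under 2 of 13 and lay between -0.35 and -1.29, and genes of like level had a median difference of -0.54. HN30 had more PMAIP1 than HN4 in both states, by 0.93 in parental and 1.35 in resistant cells.

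BCL2L11 encodes BIM, which engages all guardians and the effectors. Probe 1 read 1.09 in HN4, 1.05 in HN4_CR, 0.97 in HN30 and 2.16 in HN30_CR. HN30_CR stood alone, with a difference of 1.20 ± 0.20, or 2.30-fold, in HN30 and -0.04 ± 0.20 in HN4. Genes of like level had a median difference of -0.25 in HN30. The other probes did not follow it: in HN30 probe 2 differed by 0.09 ± 0.21 and probe 3 by 0.57 ± 0.21, while in HN4 they differed by 0.63 ± 0.21 and 0.37 ± 0.21. With the mean of the probes the HN30 difference was 0.62, and with median scaling 0.79, so the gene no longer passed the limit. Over all genes with several probes well above background, the median SD between the probes of a gene was 0.20 in HN4 (5390 genes) and 0.30 in HN30 (5278 genes).

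**Figure D3:**
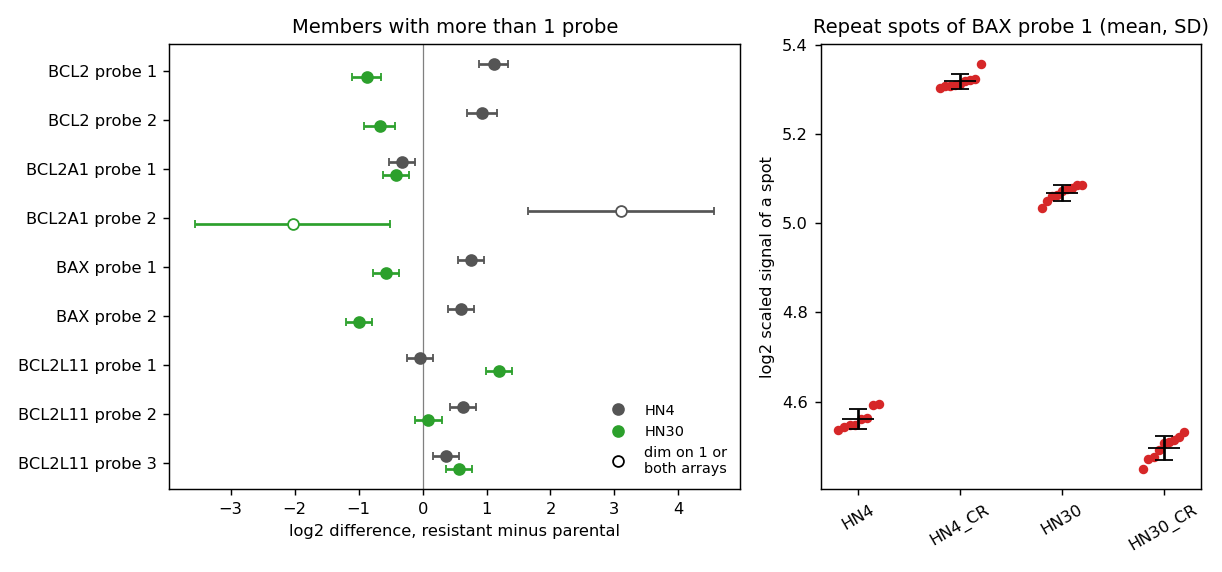
Left, resistant minus parental difference (log2) of every probe of the 4 members with more than 1, with 1 scanner SD, grey for HN4 and green for HN30, and open symbols where the probe was not well above background on at least 1 of the arrays. Right, log2 scaled signal of the single spots of BAX probe 1 on each array with their mean and SD; both BCL2 probes and both BAX probes have opposite signs in the lines, whereas the probes of BCL2A1 and of BCL2L11 differ among themselves.

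Set class against class, the guardians had a lower median difference than the effectors and BH3-only genes together in both lines, but in HN4 this depended on the probes. The median difference of the 5 guardians was 0.41 in HN4 and -0.41 in HN30. That of the 2 effectors was 1.04 and -0.37, and that of the 3 BH3-only genes -0.04 and 1.20. The median over all tested genes was -0.07 in HN4 and 0.05 in HN30. The guardian median minus the median of the 5 effectors and BH3-only genes was -0.35 in HN4 and -0.24 in HN30. In HN4 it turned to 0.34 when probes of a gene were averaged and to 0.36 with BCL2A1 probe 2. Both take that probe's HN4 signal as read, though it was not well above background, so neither value is settled. With means in place of medians the HN4 value was 0.076. The HN30 value stayed below 0 under all alternatives but came as near as -0.075 without the brightness trend. The HN30 medians of guardians and of effectors were slightly above 0 with quantile normalization, in the deposited values and without the brightness trend. Of the 25 pairs of a guardian with an effector or BH3-only gene, the guardian had the higher difference in 11 in HN4 and in 9 in HN30. These values rest on 5 genes a side and carry no test.

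From the 25 pairs, 6 pairs of binding partners were picked and set side by side. Of these 6, 5 had the same sign in both lines, and 4 to 6 did under the alternatives. Signs were not counted over all 25 pairs, so the 6 do not stand for them. The change of BCL2 minus that of BAX was 0.36 in HN4 and -0.31 in HN30, the pair whose sign turned, though in HN30 it ranged from -1.25 with quantile normalization to 0.039 with normexp. For BCL2L1 and BAX it was 0.42 in HN4 and 1.57 in HN30, where each gene's difference has a scanner SD of 0.20. The BCL2L1 signal thus gained on that of BAX in both, and whether it comes from BCL-XL transcripts was not assigned. For MCL1 and its partner PMAIP1 it was 1.71 in HN4 and 0.02 in HN30, the latter within the scanner error and below 0 under 4 alternatives, down to -0.14, and for MCL1 and BAK1 -0.91 and -0.68. Against BBC3, the change of BCL2L1 was 0.28 smaller in HN4 (a difference of -0.28) and 0.89 smaller in HN30 (-0.89), and that of BCL2 differed from the change of BBC3 by -0.35 in HN4 and -2.77 in HN30.

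Taking the lines as replicates gave the only contrast with a test, a limma fit of 2 resistant and 2 parental arrays in which cell line was a block (1 residual degree of freedom). Of 29521 genes 0, or 0%, had an adjusted p under 0.05, and 2486 had an unadjusted p under 0.05. BBC3 was 1.68 higher (SE 0.39, limma adjusted p = 0.511), higher in 2 of 2 lines. BCL2L1 was 1.09 higher (SE 0.40, limma adjusted p = 0.591), also in 2 of 2, and PMAIP1 differed by -1.09 (SE 0.39, limma adjusted p = 0.584), below 0 in 2 of 2 and past the limit in HN4 alone. The other 7 members had limma adjusted p-values from 0.801 to 0.969. No member passed under any of the 19 settings of this fit, the lowest adjusted p being 0.060 for BBC3.

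Other genes of the pathway were taken from a list of 63 genes on the arrays: further BCL2 relatives, mitochondrial release and apoptosome genes, genes for turnover and binding of the members, and upstream regulators. In HN4_CR 3 of them were higher and 1 lower, of 63 tested, beside 9.39% and 8.57% of all genes. In HN30_CR 8 were higher and 17 lower, of 62 tested, beside 19.7% and 13.3% of all genes. Of the 16 release and apoptosome genes 0 were called in HN4 and 7 were lower in HN30, beside the same 13.3%. The list also holds caspase inhibitors, and 2 of the 7 were such genes, BIRC3 (-1.14) and BIRC5 (-1.94), named here after their values were seen. The median difference of all 16 release and apoptosome genes in HN30 was -0.88, and -0.46 with the brightness trend removed. These lower counts in HN30 ranged from 8 to 27 for the whole list and from 2 to 10 for the release genes over the alternatives, fewest without the brightness trend (beside 11.1% of all genes) and most with median scaling (beside 23.7%). CYCS, which encodes cytochrome c, had the lowest difference of the release genes, with a level of 6.53 in HN30 and 4.36 in HN30_CR, a difference of -2.16, and -0.96 in HN4.

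Among the relatives, BCL2L14 was higher in both resistant lines. Its probe was too dim to be well above background in HN4 or HN30, and its signal was at least 2.90-fold higher in HN4_CR and at least 10.3-fold higher in HN30_CR. With the normexp background correction its difference was 0.55 in HN4, short of the limit, and 1.65 in HN30. BMF, a BH3-only gene that dynein light chains hold at the cytoskeleton, differed by -1.13 in HN4 and 2.15 in HN30. Its level was -1.66 in HN30 against 0.48 in HN4, and 0.49 in HN30_CR against -0.65 in HN4_CR. The HN4 difference fell short of the limit under some alternatives, up to -0.49, with the same sign.

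Of the 19 upstream regulators, DDIT3 and ATF3, transcription factors of the integrated stress response, were higher in both lines. DDIT3 (CHOP) differed by 2.26 in HN4 and 2.02 in HN30, and ATF3 by 1.47 and 2.10. ATF4, of the same response and list, was not called, at -0.33 in HN4 and 0.00034 in HN30. It is named here after its values were seen. E2F1, NFKB1 and CREB1 were lower in HN30_CR, by differences of -2.96, -2.72 and -1.15, and did not pass the limit in HN4 (-0.71, -0.80 and -0.90). CREB1 fell short of it in HN30 too without the brightness trend, at -0.96. MDM2, a ubiquitin ligase, differed by 0.02 and -0.07 (from -0.49 to 0.38 in HN30 over the alternatives), while CDKN1A, encoding the cell-cycle inhibitor p21, differed by 3.58 and 2.50. Beside the higher CDKN1A, BBC3 and PMAIP1 had opposite signs in both lines, with PMAIP1 short of the limit in HN30.

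**Figure D4:**
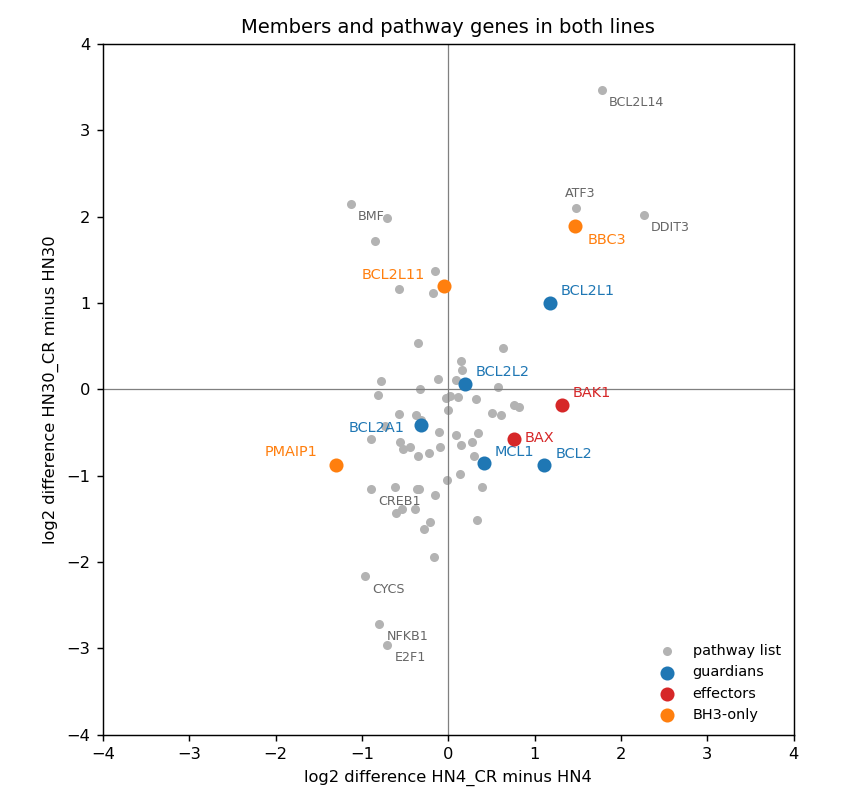
Difference in HN30 (vertical axis, log2) against difference in HN4 (horizontal axis, log2) for the 10 members, coloured by class, and the genes of the pathway list in grey, with the named ones labelled. BBC3 lies beside ATF3 and DDIT3 at the upper right, PMAIP1 at the lower left, and BCL2 and BAX at the lower right.

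RefSeq upstream windows (GRCh38.p14) were found for 8 of the 10 members, and not for MCL1 and BCL2L2. The 250 bases before the start were searched on both strands for CACGTG, the E-box of MYC-type factors, for TGACG, the core of the site of CREB and ATF factors, and for its full form TGACGTCA. Windows of BBC3, PMAIP1 and BAX are shown, as examples of a member higher in both lines, one with a difference below 0 in both and one with opposite signs, with CACGTG and TGACG in capitals on either strand.
BBC3, chr19:47232668-47232917, minus strand: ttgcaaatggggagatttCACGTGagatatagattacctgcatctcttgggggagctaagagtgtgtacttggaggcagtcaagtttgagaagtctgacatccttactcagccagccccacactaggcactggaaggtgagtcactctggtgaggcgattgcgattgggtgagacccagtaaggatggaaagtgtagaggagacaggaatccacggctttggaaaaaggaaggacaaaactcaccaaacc
PMAIP1, chr18:59899746-59899995, plus strand: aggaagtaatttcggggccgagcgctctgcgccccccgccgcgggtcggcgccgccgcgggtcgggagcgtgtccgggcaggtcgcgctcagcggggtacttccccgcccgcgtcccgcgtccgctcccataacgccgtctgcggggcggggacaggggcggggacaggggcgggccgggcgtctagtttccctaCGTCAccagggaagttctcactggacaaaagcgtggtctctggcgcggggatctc
BAX, chr19:48954625-48954874, plus strand: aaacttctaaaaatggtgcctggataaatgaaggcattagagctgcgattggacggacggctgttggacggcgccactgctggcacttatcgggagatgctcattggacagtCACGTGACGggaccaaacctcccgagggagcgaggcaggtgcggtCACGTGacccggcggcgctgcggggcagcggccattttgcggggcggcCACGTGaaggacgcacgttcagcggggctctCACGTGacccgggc
BAX held CACGTG at 4 places, the first of which overlaps a TGACG, and BBC3 held it once, beside 6.34% of 35116 promoter windows with any. TGACG stood once each in BAX, PMAIP1, BCL2 and 1 of the BCL2L1 windows, beside 21.2% of all windows. None held TGACGTCA (1.65% of all). These matches describe the letters of the windows and say nothing of binding.

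The labelled cell type was checked against marker genes. Of 12 squamous epithelial genes, all were well above background on 3 arrays and 11 on HN30_CR, where KRT6A was not. The fibroblast genes COL1A2, COL3A1, DCN and LUM were not well above background on any array, while COL1A1 and PDGFRB were. COL1A1 differed by 1.73 in HN4 and 2.43 in HN30, and PDGFRB by -0.0058 and 0.63. The summed signal of the fibroblast list was 0.405 in HN4, 1.06 in HN4_CR, 0.228 in HN30 and 0.786 in HN30_CR, in multiples of the 75th percentile. That of the squamous list was 695 in HN4, 490 in HN4_CR, 887 in HN30 and 424 in HN30_CR, a sum led by S100A2, which differed by -0.86 in HN4 and -1.49 in HN30. Single squamous genes went both ways in HN4, from -4.04 for KRT5 to 3.33 for KRT6A, and KRT6A, which dropped below the background limit in HN30_CR, had a level of 2.60 in HN30. Of 3 leukocyte genes on the array 1 or 2, and of 3 endothelial genes 2 or 3, passed on each array, with summed signals of at most 0.320. The part of these in the members' values was not tested. Spots well above background made up 55.3% to 63.6% of an array, most in HN30_CR, none was saturated, and all 4 arrays shared 1 slide and 1 scan. Arrays have no read depth, and their number limits the precision.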

How the data were processed

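RNA of 4 cell samples was hybridised to 4 one-colour arrays. The authors deposited scanner output with a processed intensity per spot, made with Agilent Feature Extraction 10.7.1.1 (background subtracted, no scaling between arrays), and a table of log2 values in which every array has the same median, 4.65. How the deposited log2 table was made is otherwise not stated in the sources used here. It served as an alternative, and its differences correlated across probes with those used here (r = 0.999 in HN4, 0.969 in HN30).

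Here the log2 of the processed intensity was taken, outlier spots were dropped, repeat spots of each probe averaged, and the 75th percentile over the 60901 non-control spots was subtracted. The probe of highest mean over the arrays stood for its gene. A gene was tested where it was well above background on at least 1 array of the pair. All genes well above background on any array were fitted with limma 3.58.1 under R 4.3.3, with a trended eBayes step. Other steps used Python 3.11.15, and the procedures were tested on simulated data. Groups came from the sample titles. The members and gene lists were chosen with earlier results of these data known. All members and their probes are named, and of the pathway list the genes past 1 the same way in both lines and the 3 largest differences each way in each line, with MDM2 and CDKN1A as context. BIRC3, BIRC5 and ATF4 were named after their values were seen. 1 further context gene and the probe sequences of BCL2 and BAX are not reported here. Likeness of pattern was not ranked, since there are only 4 arrays. With probe coordinates on hg19 and a gene table of another build, exon and UTR positions were not assigned. Alternatives changed the background correction, scaling, pseudocount, filter, probe choice, threshold and limma design.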

Additional observations from a re-analysis of the deposited data

Results flagged for a closer look

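2 members differed in opposite directions in the 2 cell lines, by more than 0.5 in each. For BCL2 the difference was 1.11 in HN4 and -0.88 in HN30, so that HN30 minus HN4 was -1.99. For BAX it was 0.76 and -0.57, and HN30 minus HN4 was -1.33. Neither difference between lines was tested, since each condition has 1 array. Both probes of each gene had the same signs. Under the alternative settings BCL2 stayed between 0.64 and 1.16 in HN4 and between -1.30 and -0.51 in HN30, and BAX between 0.68 and 0.86 and between -0.98 and -0.03.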

How the results depend on the processing

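Of 130 values of single members in each line under 13 alternatives, 45 were identical to the main value, mostly where the alternative could not touch that gene. More than the scanner SD of the difference separated 4 values in HN4 and 42 in HN30 from the main ones, and no called value changed sign. 3 alternatives were chosen after seeing the data: the percentile over probes, removal of the brightness trend by a running median, and BCL2A1 by its other probe. A limit of 2 in place of 1 left 0 members in HN4 and 0 in HN30. Averaging a gene's probes gave medians in HN4 of 1.02 for guardians, 0.32 for BH3-only genes and 0.34 for guardians minus the rest (effectors and BH3-only genes), and in HN30 of -0.77, 0.62 and -0.60. The guardian medians here, and guardians minus the rest, average in BCL2A1 probe 2, which was well above background on HN4_CR alone. With the other BCL2A1 probe the guardian median was 1.11 in HN4 and -0.85 in HN30, and guardians minus the rest 0.36 and -0.68. These values take that probe's signal as read, though it was not well above background in HN4, HN30 or HN30_CR. Means in place of medians gave 0.44 for the rest and 0.076 for guardians minus the rest in HN4, and 0.74 for BH3-only genes, 0.29 for the rest and -0.51 for guardians minus the rest in HN30.

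In HN30 the scaling moved every class. For guardians, effectors, BH3-only genes and the rest in that order, the medians were -0.83, -0.79, 0.79 and -0.59 with median scaling, 0.041, 0.060, 1.42 and 0.17 with quantile normalization, 0.046, 0.060, 1.42 and 0.16 in the deposited values, and 0.12, 0.080, 1.46 and 0.19 without the brightness trend. The guardian median thus changed sign in HN30, and so did that of the effectors.

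limma called 341 genes with median scaling, and 0 to 477 with 1 array left out and no block: 477 without HN4_CR and 174 without HN30_CR, where the lone resistant array is assumed to vary like the others, and 0 without either parental array. The cause was not tested. Over all genes, 2522 were higher and 2301 lower in HN4, against 1120 and 1031 with normexp, 1500 and 1536 with both arrays well above background, and 1472 and 1231 with NM accessions only. In HN30 5584 were higher and 3772 lower (59.7% higher), against 2328 and 2673 (46.6%), 3154 and 3307 (48.8%), and 2539 and 2672 (48.7%), and 3870 and 6726 with median scaling. The block of the limma fit pairs each resistant array with its parent by cell line, and without it limma called 0 genes (3250 at an unadjusted p under 0.05, against 2486 with it). By replicate number, no paired analysis was possible because each group holds only replicate 1. The limits are 1 culture per condition, an error that covers the scanner alone, and cisplatin present only in the resistant cultures.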
